A study of Mus musculus with 4 samples.

Results

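The genes described are the kinases and adaptors that act directly below the B-cell receptor. The list held 9 genes, Blk, Lyn, Fyn, Fgr, Syk, Btk, Blnk, Plcg2 and Bank1, and every MOE430_2 probe set annotated to 1 of them alone was taken. Of the 9, 8 had such a probe set, 13 in all, out of 18193 genes measured. Lyn had none in the platform annotation used and was not analysed here. Expression was measured on 4 arrays, 2 of CLP_RAGhigh and 2 of CLP_RAGlow cells, each from 2000 sorted cells. Both groups were common lymphoid progenitors (CLP) of the bone marrow of C57Bl6 mice aged 8 to 12 weeks, and the descriptions call the sorted fractions GFP high and GFP low. The labels give no genotype, treatment or reporter construct, and call the replicates biological without saying whether animals or sorts were separate, so the error behind each p-value may be technical.

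When an antigen binds the B-cell receptor, Src family kinases (Blk, Lyn, Fyn and, in some cells, Fgr) phosphorylate the tails of the signalling chains Cd79a and Cd79b. Syk docks on the phosphorylated tails and phosphorylates the adaptor Blnk, on which the Tec family kinase Btk and the phospholipase Plcg2 assemble. Plcg2 then makes the messengers that release calcium and activate protein kinase C, while Bank1 is a scaffold that binds Lyn and the calcium channel of the endoplasmic reticulum. The same enzymes serve the pre-B-cell receptor, which appears once a heavy chain has been made.

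The upstream windows of the 4 genes whose arrays separated upward and for which a start site was given are shown, because all 4 had higher levels in CLP_RAGhigh. RefSeq start sites of build GRCm38.p6 were found for 7 of the 9 genes (not for Blk and Lyn), in 8 windows, and each sequence runs 5′ to 3′ on the gene's own strand over the 250 bases before the start. Capitals mark matches to any of 4 motifs searched on both strands.
Syk, first start (chr13:52583187-52583436, plus strand): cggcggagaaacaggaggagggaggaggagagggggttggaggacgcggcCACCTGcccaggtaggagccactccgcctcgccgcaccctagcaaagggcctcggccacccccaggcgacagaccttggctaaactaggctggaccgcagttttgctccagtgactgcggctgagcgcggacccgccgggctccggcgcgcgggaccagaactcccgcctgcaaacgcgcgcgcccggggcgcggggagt
Syk, second start (chr13:52596632-52596881, plus strand): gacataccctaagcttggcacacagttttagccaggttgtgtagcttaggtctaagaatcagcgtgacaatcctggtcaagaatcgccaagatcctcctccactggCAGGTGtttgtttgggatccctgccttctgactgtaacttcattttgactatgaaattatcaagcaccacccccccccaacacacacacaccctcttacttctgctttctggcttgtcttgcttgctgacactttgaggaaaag
Btk (chrX:134583141-134583390, minus strand): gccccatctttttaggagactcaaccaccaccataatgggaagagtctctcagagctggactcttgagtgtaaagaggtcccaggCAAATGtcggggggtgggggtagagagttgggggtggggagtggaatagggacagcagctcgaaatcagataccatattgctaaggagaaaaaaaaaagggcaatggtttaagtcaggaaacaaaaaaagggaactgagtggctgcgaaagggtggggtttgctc
Blnk (chr19:40994222-40994471, minus strand): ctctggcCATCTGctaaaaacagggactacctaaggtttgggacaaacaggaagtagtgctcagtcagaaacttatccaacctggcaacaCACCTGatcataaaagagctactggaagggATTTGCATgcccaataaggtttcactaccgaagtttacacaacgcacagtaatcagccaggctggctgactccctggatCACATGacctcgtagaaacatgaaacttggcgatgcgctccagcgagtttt
Plcg2 (chr8:117498025-117498274, plus strand): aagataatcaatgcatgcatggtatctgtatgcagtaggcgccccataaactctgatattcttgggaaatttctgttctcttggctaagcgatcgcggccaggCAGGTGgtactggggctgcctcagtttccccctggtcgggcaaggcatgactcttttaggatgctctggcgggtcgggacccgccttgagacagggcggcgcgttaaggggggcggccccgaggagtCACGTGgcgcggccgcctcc
The motifs were the octamer ATGCAAAT, which Oct factors bind, CCCNNGGG, the core that Ebf1 binds, CANNTG, the E-box that E proteins bind, and GAGGAAG, a form of the PU.1 site. They were chosen after the expression values were known. The octamer was found in the Blnk window alone, as ATTTGCAT on the printed strand from 130 to 123 bases before the start, and in 1.6% of 32851 mouse windows of this length. E-boxes were found in 6 of the 8 windows of the listed genes and in 66.2% of all windows. The Blnk window held 3 of them and the Plcg2 window 2. The Ebf1 core was found in 2 of the 8 windows, those of Fyn and Bank1, against 11.8% of all windows, and the PU.1 form in 0 of the 8, against 10.6%. No motif match overlapped another. A match describes these letters only.

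The sort was checked with the recombinase genes after which the groups are named. Rag1, the cutting subunit, had log2 intensities of 10.92 and 10.62 in CLP_RAGhigh and 7.72 and 8.53 in CLP_RAGlow, and its partner Rag2 had 9.48 and 9.15 against 8.12 and 8.72. All 10 CLP markers listed, such as Il7r, Flt3 and Kit, lay above the median of all probe sets on all 4 arrays. That median was 3.88 on the log2 scale, and 10537 of 18193 genes lay above it on all 4. The 10 include Rag1 and Rag2. For Actb the 3' probe set read 9.62 to 24.5 times as high as the 5' one. The ratio was 16.2 and 9.62 in CLP_RAGhigh and 13.5 and 24.5 in CLP_RAGlow. For Gapdh it was 15.7 and 10.6 against 14.0 and 20.0. Both were lowest on CLP_RAGhigh replicate 2 and highest on CLP_RAGlow replicate 2. Of 18193 genes, limma called 0 at an adjusted p under 0.05 (0%), and 428 had an unadjusted p under 0.05 and a higher mean in CLP_RAGhigh against 535 with a lower one. An exact permutation test of 2 arrays against 2 cannot give a two-sided p below 0.333.

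Of the 8 measured genes, 7 had a higher mean in CLP_RAGhigh, and Fgr had a lower one. For 5 genes the lower CLP_RAGhigh array exceeded the higher CLP_RAGlow array (Blk, Syk, Btk, Blnk and Plcg2), where 15.4% of all genes were separated in this direction. For 1 gene (Fgr) the groups were separated downward, against 15.8% of all genes. Of the 13 probe sets 5 were separated upward, against 15.5% of all 34945 probe sets, and 1 downward, against 15.2%. The arrays of Fyn and Bank1 overlapped. The median log2 difference, CLP_RAGhigh minus CLP_RAGlow, was 0.49 over the 8 genes and 0.00 over all genes. With limma 0 of the 8 passed at an adjusted p under 0.05, while 3 (Blk, Blnk and Plcg2) had an unadjusted p under 0.05 with a higher mean, against 2.35% of all genes, and 0 had one with a lower mean, against 2.94%. The genes were chosen with earlier results of these data known, so these counts describe them and do not test them.

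**Figure D1:**
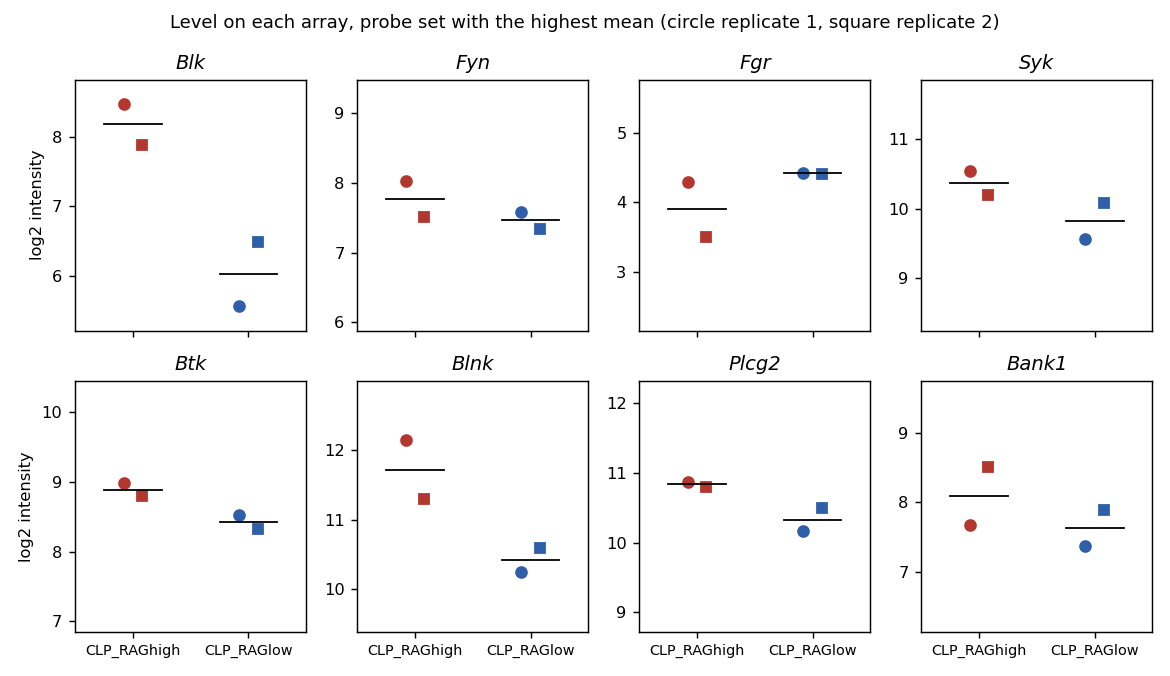
Log2 intensity on each array (vertical axis, every panel spanning the same range of log2 units) for the probe set with the highest mean of each gene, by group, with a line at the mean of the 2 arrays. Blk and Blnk show the widest gaps between groups, and the points of Fyn and Bank1 overlap.

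Blk is the Src family kinase found mainly in the B lineage, and it differed most among the 8 genes. Its 1 probe set (1422775_at) read 8.47 and 7.88 (log2 intensity) in CLP_RAGhigh and 5.56 and 6.49 in CLP_RAGlow. Both CLP_RAGhigh arrays were high, with 1.39 log2 units between the lower of them and the higher CLP_RAGlow array. On the linear scale the intensities were 355 and 236 against 47.3 and 90.0. The means were 8.18 ± 0.42 and 6.03 ± 0.66 (SD, n = 2 each), a log2 difference of 2.15 ± 0.47 (SE; 95% interval 0.99 to 3.31) or 4.44-fold, with a limma adjusted p of 0.599. The difference ran from 1.69 to 2.61 when 1 array was left out. In bulk samples such as these, fewer cells with a transcript and less of it per cell cannot be told apart.

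Fyn, a Src family kinase with known roles in T cells and the brain, did not separate the groups. Its brighter probe set (1448765_at) read 8.03 and 7.51 in CLP_RAGhigh and 7.59 and 7.34 in CLP_RAGlow, a log2 difference of 0.31 ± 0.36 (SE, n = 2 each; 95% interval -0.59 to 1.21). The lower CLP_RAGhigh array thus lay between the CLP_RAGlow arrays. Its second probe set (1417558_at) read 7.75 and 6.996 against 5.79 and 7.26, a difference of 0.85 ± 0.61, and overlapped too. Without CLP_RAGhigh replicate 1 the difference of the brighter probe set was 0.05.

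Fgr, the Src family kinase of granulocytes and monocytes, lay close to the median of all probe sets. Its brighter probe set (1419526_at) read 4.30 and 3.50 in CLP_RAGhigh and 4.42 and 4.41 in CLP_RAGlow, so that 1 CLP_RAGhigh array stood apart below the other 3. The log2 difference was -0.52 ± 0.34 (SE, n = 2 each; 95% interval -1.37 to 0.33), which was -0.17 after an offset of 32 was added before log2 and -0.12 without CLP_RAGhigh replicate 2, but -0.91 without CLP_RAGhigh replicate 1. The second (1442804_at) read 3.84 and 4.19 against 4.17 and 3.84, a difference of 0.01 ± 0.30. The 14 measured myeloid markers (of 16 listed) had summed intensities of 4384 and 4567 in CLP_RAGhigh and 6390 and 3408 in CLP_RAGlow. Of the 14, 7 lay above the median of all probe sets on all 4 arrays, where 10537 of 18193 genes did. Another 2, Itgam and Fcgr3, lay below it on all 4, where 5685 genes did. By mean, 8 of the 14 were higher in CLP_RAGhigh and 6 lower. Of the 14, 2 (Fcgr3 and Elane) were separated above and 2 (Csf1r and Csf3r) below, against 15.4% and 15.8% of all genes. Csf1r read 6.79 and 8.26 in CLP_RAGhigh and 9.31 and 9.54 in CLP_RAGlow, and Csf3r 6.27 and 5.95 against 7.02 and 6.86. Mpo read 10.9 and 10.9 in CLP_RAGhigh and 10.7 and 11.0 in CLP_RAGlow. S100a8 read 9.6 and 9.6 against 10.1 and 3.8, and Ngp 9.0 and 9.7 against 10.4 and 3.8, both lowest on CLP_RAGlow replicate 2. The part of the myeloid markers in the Fgr values was not tested.

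Syk, the kinase that reads the phosphorylated receptor tails, had 4 probe sets that disagreed. The brightest (1418261_at) read 10.53 and 10.20 in CLP_RAGhigh and 9.57 and 10.09 in CLP_RAGlow, with 0.11 log2 units between the nearest arrays of the groups. Its log2 difference was 0.54 ± 0.26 (SE, n = 2 each; 95% interval -0.11 to 1.19), or 1.45-fold. It was 0.28 without CLP_RAGlow replicate 1 and 0.80 without CLP_RAGlow replicate 2. The next (1418262_at) read 8.59 and 8.15 against 8.18 and 7.84, a difference of 0.36 ± 0.32 with overlapping arrays. The other two went the other way, at -0.41 ± 0.27 for 1425797_a_at, which lay below the median of all probe sets on every array, and at -0.81 ± 0.96 for 1457239_at. The last read 6.11 and 3.23 against 5.44 and 5.51, so that its sign rested on CLP_RAGhigh replicate 2, and without that array the difference was 0.63. With all 4 probe sets averaged the Syk difference was -0.08.

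**Figure D2:**
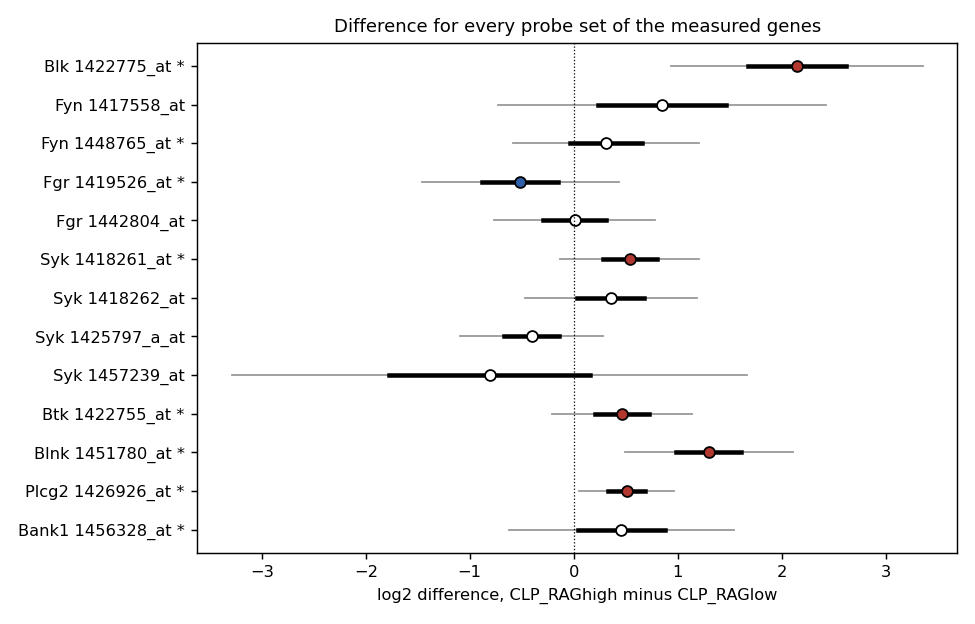
Log2 difference, CLP_RAGhigh minus CLP_RAGlow, for each of the 13 probe sets, with thick bars for the standard error and thin bars for the 95% interval of the limma fit over all probe sets. Filled points mark probe sets whose groups do not overlap (red above, blue below), and an asterisk marks the brightest probe set of a gene. Of the 13 differences 10 are above 0, and the 4 Syk probe sets fall on both sides of 0.

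Blnk, the adaptor that links Syk to Btk and Plcg2 and whose upstream window holds the octamer printed above, differed second most. Its 1 probe set (1451780_at) read 12.14 and 11.30 in CLP_RAGhigh and 10.25 and 10.59 in CLP_RAGlow. The 4 arrays fell into their groups with a gap of 0.71 log2 units, and CLP_RAGhigh replicate 1 was the highest. The means were 11.72 ± 0.60 and 10.42 ± 0.24 (SD, n = 2 each), a log2 difference of 1.30 ± 0.30 (SE; 95% interval 0.55 to 2.05) or 2.46-fold, with a limma adjusted p of 0.654. Without CLP_RAGhigh replicate 1 the difference was 0.88 and without replicate 2 it was 1.72.

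Btk (1422755_at), the kinase whose mutation causes X-linked immunodeficiency in mice, read 8.98 and 8.80 in CLP_RAGhigh and 8.53 and 8.32 in CLP_RAGlow. The arrays separated by 0.27 log2 units, and the difference was 0.46 ± 0.29 (SE, n = 2 each; 95% interval -0.24 to 1.17). Plcg2 (1426926_at), the phospholipase that Btk activates, read 10.88 and 10.80 against 10.17 and 10.49. Its CLP_RAGhigh arrays differed by less than those of any other of the 8 genes, and its difference was 0.51 ± 0.19 (95% interval 0.04 to 0.98) or 1.42-fold, with a limma adjusted p of 0.923.

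Bank1 (1456328_at), the scaffold, read 7.68 and 8.51 in CLP_RAGhigh and 7.38 and 7.90 in CLP_RAGlow. Its arrays overlapped, and the log2 difference was 0.46 ± 0.42 (SE, n = 2 each; 95% interval -0.59 to 1.51). The value rested on CLP_RAGhigh replicate 2, since without that array it was 0.04. Bank1 was the 1 gene of the 8 with a lower level on CLP_RAGhigh replicate 1 than on replicate 2. The other 7 were higher on replicate 1, as were 40.7% of all genes.

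CLP_RAGhigh replicate 1 also had the highest summed intensity over 12 immediate early genes, at 6931, against 783 for its replicate and 984 and 737 in CLP_RAGlow. Fos weighed most in that sum, at 12.27 against 7.13 on CLP_RAGhigh replicate 2 and 7.28 and 5.17 in CLP_RAGlow. Ier3 and Nr4a1 were lowest on CLP_RAGhigh replicate 1, and the rest of the 12 were highest on it. The 14 measured G2 and M phase genes had sums of 2307 and 4504 in CLP_RAGhigh and 5249 and 8588 in CLP_RAGlow, lowest on that same array. Of these 14, 12 had a lower mean in CLP_RAGhigh, with a median log2 difference of -1.23. Among them 6 were separated below, against 15.8% of all genes, and 0 above, against 15.4%. The part of either list in the values above was not tested. Without CLP_RAGhigh replicate 1 Blk differed by 1.85, Plcg2 by 0.47, Btk by 0.37 and Syk by 0.37, all in the same direction as with it. Of 9 measured mature B-cell markers (11 listed), 4 had a mean above and 5 a mean below that of CLP_RAGlow. The summed intensities of these 9 were 5317 and 3475 in CLP_RAGhigh and 3267 and 3923 in CLP_RAGlow. Ighm, the brightest, weighed most in these sums, at 12.14 and 11.24 against 11.18 and 11.59. Of the 9, 4 (Ighm, H2-Aa, H2-Ab1 and Cd74) were above the median of all probe sets on all 4 arrays, as were 10537 of 18193 genes. Another 4 (Ms4a1, Cr2, Fcer2a and Cd83) were below it on all 4, as were 5685 genes. Of 8 plasmacytoid dendritic markers, 7 had a lower mean in CLP_RAGhigh, 4 were separated below and 1 above, and the median log2 difference was -0.71, with summed intensities of 3201 and 4409 in CLP_RAGhigh and 4900 and 6144 in CLP_RAGlow. None of the 8 was below the median of all probe sets on all 4 arrays, and 7 were above it on all 4. The part of these markers in the values above was not tested.

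**Figure D3:**
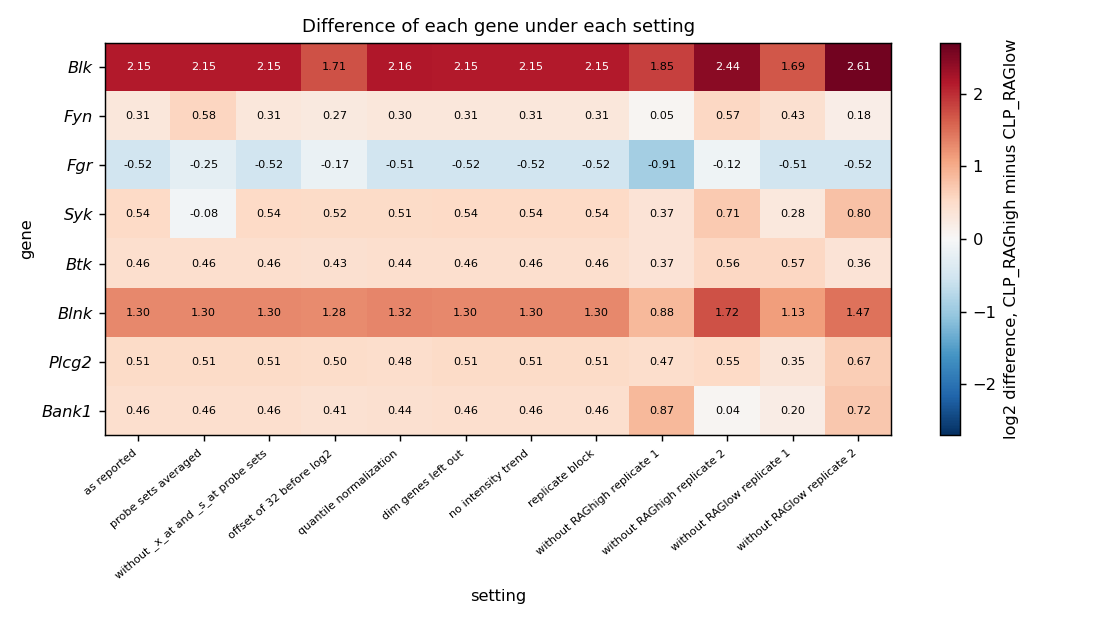
Log2 difference, CLP_RAGhigh minus CLP_RAGlow, of each gene (vertical) under each setting (horizontal), with the colour and the printed value giving the difference. Blk stays between 1.69 and 2.61 and Blnk between 0.88 and 1.72, and Syk is at -0.08 with its probe sets averaged.

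The remaining genes of the pathway were taken from lists by step. The counts for each list stand beside 15.4% of all genes separated above and 15.8% below. For an unadjusted limma p under 0.05 the shares of all genes were 2.35% with a higher mean and 2.94% with a lower one. At the receptor, 6 of 7 measured genes (9 listed) had a higher mean in CLP_RAGhigh, with a median log2 difference of 0.93, and 4 separated above and 0 below. Cd79a, whose tail Blk and its relatives phosphorylate, read 6.37 and 5.85 against 4.37 and 3.76, and Vpreb1 and Vpreb3, which take part in assembling the pre-B-cell receptor, differed by 3.13 ± 0.28 and 1.50 ± 0.42. When 32 was added before log2, the Cd79a difference went from 2.05 to 1.05 and that of Vpreb3 to 0.85. With limma 0 of the 7 passed at an adjusted p under 0.05, and 4 had an unadjusted p under 0.05.

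Inhibitors of the receptor had a median of 0.29 over 16 genes. The means of 12 were higher and of 4 lower in CLP_RAGhigh (Siglecg, at a difference of 0.00, is counted among the 4), with 7 separated above and 1 below, and 0 passed with limma while 3 had an unadjusted p under 0.05. Inpp5d, the lipid phosphatase that limits recruitment of Btk to the membrane, read 11.79 and 11.15 in CLP_RAGhigh and 10.44 and 10.88 in CLP_RAGlow. Lax1, an adaptor that dampens the receptor, read 5.65 and 6.15 against 4.57 and 4.38, and Cd22, an inhibitory lectin, read 4.60 and 4.24 against 3.69 and 3.77, both of the latter below the median of all probe sets. With the offset of 32 the difference of Lax1 went from 1.42 to 0.76 and that of Cd22 from 0.68 to 0.24, and the second probe set of Cd22 differed by 0.17. The median of the 16 was 0.07 without CLP_RAGhigh replicate 1.

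Counterparts of these enzymes in T and natural killer cells had a median of 0.08 over 6 measured genes (8 listed), with 4 higher and 2 lower, 2 separated above and 1 below. Lcp2, the adaptor that does in T cells what Blnk does in B cells, read 4.84 and 3.99 in CLP_RAGhigh and 6.70 and 5.87 in CLP_RAGlow, a difference of -1.87 ± 0.47. Its second probe set, below the median of all probe sets on all 4 arrays, differed by -0.07, and the average of both was -0.97. With the offset of 32 the brighter one differed by -1.04. Zap70, the relative of Syk in T cells, had 3 probe sets. The brightest differed by 0.15 and was separated above by 0.04 log2 units, and another differed by -0.52. The third, 1440178_x_at, whose suffix marks probes that may cross-hybridise, was separated below. It read 5.06 and 5.46 against 6.83 and 6.11, a difference of -1.21. Sh2d1a, the other gene separated above, lay below the median of all probe sets on all 4 arrays. With limma 0 of the 6 passed, and 1, Lcp2, had an unadjusted p under 0.05.

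Other members of the Src, Tec and adaptor families had a median of -0.09 over 13 measured genes (14 listed), 6 higher and 7 lower, with 1 separated above and 3 below. Dapp1, an adaptor that binds lipids of the membrane, read 8.40 and 8.22 against 8.77 and 9.04, a difference of -0.60, while its second probe set differed by 0.37 and the average of both was -0.11. Vav3, a guanine exchange factor, differed by -0.57 ± 0.34 (-0.38 with its 3 probe sets averaged). Nck1 differed by -1.02 ± 0.57 at its brightest probe set and by 1.30 at another, with an average of 0.06 over its 3 probe sets. With limma 0 of the 13 passed, and 0 had an unadjusted p under 0.05.

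Genes that act after the phospholipase had a median of 0.20 over 16 measured genes (18 listed), which was -0.04 with probe sets averaged and 0.06, 0.11 and 0.33 without CLP_RAGhigh replicate 1, CLP_RAGlow replicate 1 and CLP_RAGhigh replicate 2. Of these 9 were higher and 7 lower, 4 separated above and 3 below. Prkcb, the protein kinase C of the receptor pathway, read 7.99 and 7.81 in CLP_RAGhigh and 4.52 and 6.13 in CLP_RAGlow, a difference of 2.58 ± 0.59. Averaging its 3 probe sets gave 1.21, with 1443144_at below the median of all probe sets on all 4 arrays. Nfatc2, a transcription factor that calcium activates, read 6.98 and 7.69 against 9.18 and 8.50, a difference of -1.50 ± 0.42. Its 6 probe sets averaged to -0.17, where those other than the brightest were dimmer, at 2.51 to 5.43. Itpr2, a calcium channel of the endoplasmic reticulum, differed by 1.13 ± 0.59, and its 6 probe sets averaged to 0.60. With limma 0 of the 16 passed, and Prkcb and Nfatc2 had an unadjusted p under 0.05.

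**Figure D4:**
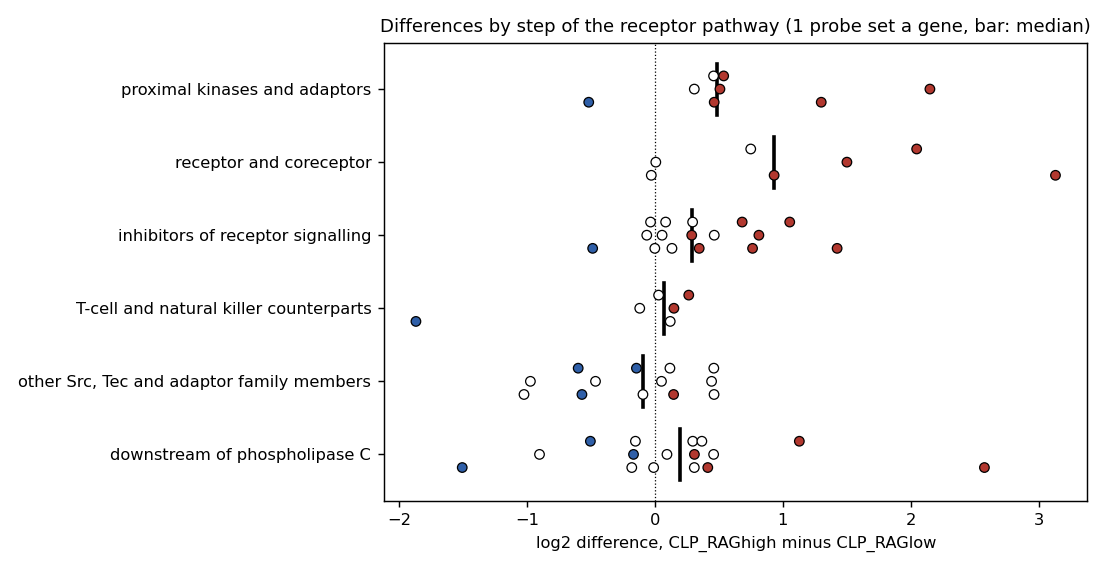
Log2 difference, CLP_RAGhigh minus CLP_RAGlow, of each gene by step of the pathway, with a bar at the median of each list. Filled points mark genes whose groups do not overlap (red above, blue below). The medians run from 0.93 at the receptor to -0.09 for other members of the Src, Tec and adaptor families.

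Profiles over the 4 arrays were compared by the Euclidean distance between deviations from each gene's mean, among genes brighter than the median gene. The closest to Blk were Pde2a (distance 0.28), Stx3 (0.41) and Hes1 (0.41), where the length of Blk's own profile was 2.29. Pde2a, a cyclic nucleotide phosphodiesterase, read 12.13 and 11.70 in CLP_RAGhigh and 9.16 and 9.91 in CLP_RAGlow. The closest to Blnk, with a length of 1.45, were Poc5 (0.13), Xxylt1 (0.16) and Spopl (0.18). With 4 arrays and 9095 candidates, such closeness is a description.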

How the data were processed

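Biotin-labelled RNA was hybridised to Affymetrix MOE430_2 arrays after dual amplification, per the labels' protocols and series design. The deposited values are intensities from the RMA algorithm, per the series design in the labels, on a linear scale judged from their range. The software, genome build and filters were not given in the sources used here. Of 45101 rows, 64 control probe sets were left out. Of the other 45037, 34945 had 1 gene in the platform annotation, 932 several and 9160 none. Log2 was taken, and the probe set with the highest mean per gene was kept (18193 genes). Groups came from the sample titles. Differences were fitted with limma 3.58.1 in R 4.3.3 (lmFit, eBayes with an intensity trend, two-sided, Benjamini-Hochberg over all genes, 2 residual and 3.75 prior degrees of freedom). A second fit over all 34945 probe sets gave the values of probe sets that are not the brightest of a gene. The fit was tested on simulated data with independent noise, where differences were planted in brighter genes only. The planted differences were larger than those of all measured members but Blk, so the simulation does not speak to smaller ones. Values not above background cannot be told from low expression, and the number of arrays limits the precision. Members, gene lists and tests were chosen with earlier results of these data known. All members are named, with the 3 genes of smallest p of each pathway list, Rag1 and Rag2, and the 3 closest profiles of Blk and Blnk. Other genes named in the text (the separated or disagreeing features, marker names) were chosen after their values were seen. Alternatives changed the probe set rule, offset, normalization, dim filter, variance model, replicates and replicate block. Figures were drawn with matplotlib 3.10.9.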

Additional observations from a re-analysis of the deposited data

How the results depend on the processing

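Of the 8 genes, 7 kept their direction under all 11 alternatives and Syk under 10, with a difference of -0.0802 when its probe sets were averaged. Under each of the 11, 0 of the 8 genes passed. Over all genes, the number called by limma as higher and lower in CLP_RAGhigh was 2 and 0 with probe sets averaged, 2 and 1 after quantile normalization, 1 and 0 with dim genes left out, and 5 and 2 with the replicate block, against 0 and 0. Whether the replicate numbers pair samples that were sorted or processed together was not settled. The correlation of deviations by replicate number was -0.02 over all genes, which cannot decide this with 2 arrays a group. With the replicate block the limma adjusted p was 0.379 for Blk and 0.344 for Blnk. When 1 array was left out, the number of genes separated above was 6 each time, where 2 arrays against 1 separate more easily, and the median over the 8 genes ran from 0.39 to 0.69. The list medians ran from 1.04 to 1.28 at the receptor, 0.0666 to 0.459 for inhibitors, -0.0608 to 0.146 for T and natural killer counterparts, -0.278 to -0.0639 for the other family members and 0.0595 to 0.326 for genes after the phospholipase (0.0595 without CLP_RAGhigh replicate 1). The counterparts' median was 0.0135 with the offset of 32 and 0.0013 with dim genes left out, and the receptor's was 1.22 with dim genes left out. For the other family members it was 0.0569 with probe sets averaged, 0.052 without probe sets ending in _x_at or _s_at and -0.0119 with the offset, and for genes after the phospholipase -0.0362 with probe sets averaged. With 1 array left out, probe set 1457239_at of Syk ran from -2.25 to 0.63 (the latter without CLP_RAGhigh replicate 2), and 1442804_at of Fgr from -0.17 (without CLP_RAGhigh replicate 2; -0.16 without CLP_RAGlow replicate 2) to 0.19. The cause of these shifts was not tested. The 2 arrays a group limit every value here.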
